A study of Mus musculus with 4 samples.

Results

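Runx1, Runx2, Runx3, Cbfb and Runx1t1 were followed in leukemic bone marrow, 5 genes that were chosen by symbol as the RUNX transcription factors, their common partner and the gene fused to RUNX1 in a subtype of human acute myeloid leukemia. Probe sets with a single gene symbol were available for 4 of the 5 genes, among 19938 genes tested. Runx2 had no probe set under its symbol in the platform annotation used and was not analysed here. Total RNA of whole bone marrow was measured on 4 Affymetrix mouse gene arrays, 2 labelled Hes1-null and 2 labelled wild type. The strain was C57BL/6 throughout, and the MLL-AF9 fusion oncogene drove the leukemia of both groups. The groups are MLL-AF9/Hes1-/- and MLL-AF9/Hes1+/+ in the submitters' notation, so the wild-type marrow is leukemic too. The labels give no age, treatment or time point, and do not say whether each array is a separate animal, so p-values measure the spread between these samples, which may be partly technical.

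RUNX proteins bind DNA through the Runt domain and recognise the core sequence TGTGGT. CBFB does not contact DNA itself but binds the Runt domain, raises its affinity for DNA and protects RUNX1 from degradation. RUNX1 is required for the emergence of blood stem cells and for the maturation of granulocytes, megakaryocytes and lymphocytes. RUNX3 acts in cytotoxic T cells, natural killer cells and dendritic cells, and RUNX2 is the master regulator of osteoblasts. RUNX1T1, also called ETO, is a nuclear corepressor without a Runt domain.

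Each RUNX gene is known to be transcribed from a distal and a proximal promoter. RefSeq windows of 300 bases (250 before and 50 after an annotated start, build GRCm38.p6) were at hand for Runx1, Runx2, Runx3 and Cbfb. The longest run of bases held by 1 window of each of the 3 RUNX genes was 18 bases long and contains the RUNX core in tandem. It is shown here because it links the 3 family members, with the shared run in capitals and 6 flanking bases on either side. For Runx1 and Runx3, which have 2 windows each, it lay in the more upstream window.
Runx1 (chr16:92826025-92826054, minus strand): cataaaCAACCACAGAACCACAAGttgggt
Runx2 (chr17:44814583-44814612, minus strand): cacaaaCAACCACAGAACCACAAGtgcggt
Runx3 (chr4:135120503-135120532, plus strand): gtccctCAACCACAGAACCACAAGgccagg
Counted from the annotated start as base 1, the run began at base 27 in Runx1, at base 22 in Runx2 and at base -136, upstream of the start, in Runx3. It was found in 4 of 32851 promoter windows (0.0122%), the fourth being Gm16225, whose window on the opposite strand shares 232 bases with that of Runx3.

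The motif TGTGGT, searched on both strands and therefore also as ACCACA, occurred in 16.8% of all 32851 windows, and 1.81% held at least 2 matches. The upstream windows of Runx1 and Runx3 held 2 matches each and that of Runx2 held 3. The second windows of Runx1 and Runx3 and the window of Cbfb held 0. The 2 upstream windows of the measured RUNX genes are printed in full, with each match in capitals, because the Runx1 and Runx3 signals differed in opposite directions between the genotypes.
Runx1 (chr16:92826025-92826324, minus strand): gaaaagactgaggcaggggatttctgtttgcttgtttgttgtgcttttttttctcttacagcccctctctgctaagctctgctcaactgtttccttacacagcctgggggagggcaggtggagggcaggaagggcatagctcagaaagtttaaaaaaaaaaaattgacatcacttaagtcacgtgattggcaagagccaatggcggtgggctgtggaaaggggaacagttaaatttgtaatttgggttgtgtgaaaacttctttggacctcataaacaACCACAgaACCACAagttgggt
Runx3 (chr4:135120395-135120694, plus strand): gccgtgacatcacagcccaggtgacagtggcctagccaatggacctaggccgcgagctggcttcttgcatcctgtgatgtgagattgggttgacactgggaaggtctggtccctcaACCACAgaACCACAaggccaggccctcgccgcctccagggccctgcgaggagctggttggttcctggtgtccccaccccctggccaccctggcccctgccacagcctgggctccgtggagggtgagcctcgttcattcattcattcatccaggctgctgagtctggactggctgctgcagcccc
A match is a description of the letters and does not show a bound site. The array gives 1 value per gene, so transcripts from the 2 promoters of a RUNX gene were not separated. The annotation ties the Runx1 probe set to 4 of 4 curated RefSeq transcripts and the Runx3 probe set to 1 of 2.

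Levels are log2 probe set intensities. Differences are the Hes1-null mean less the wild-type mean, and ± gives the moderated standard error from limma (n = 2 arrays in each group). Array medians of intensity ran from 65.0 to 67.3. The Hes1-null arrays were less alike than the wild-type arrays (r = 0.982 and 0.995 across genes, which are not independent replicates), with 683 genes at least 2-fold apart within Hes1-null marrow and 109 within wild type. Xist, transcribed from the inactive X chromosome, stood apart at 7.25 on Hes1-null replicate 2, against 11.7 or above on the other 3 arrays. Hes1 did not separate the labels, at 5.43 and 5.84 on the Hes1-null arrays and 5.59 and 5.79 on the wild-type arrays, so Hes1-null means labelled Hes1-null. Hoxa9 and Meis1, homeobox genes that MLL fusions keep active, lay at 9.18 or above on every array. The 6 measured Y-linked genes, read as a sign of background, did not exceed 4.09.

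Runx1, a tumor suppressor and a survival factor in different myeloid leukemias, was the member that differed most. Its level was 10.20 and 9.94 on the Hes1-null arrays, against 10.95 and 11.04 on the wild-type arrays. Both Hes1-null arrays lay below both wild-type arrays, and the gap between the nearest arrays, 0.75, was larger than the spread within either genotype (0.26 in Hes1-null and 0.091 in wild type). The difference was -0.92 ± 0.15 (95% interval -1.30 to -0.55), which puts the Hes1-null signal at 0.528 of wild type (interval 0.407 to 0.684). The p-value was 0.00119, and 0.155 by limma with Benjamini-Hochberg adjustment over all genes, so it did not pass the threshold of 0.05. In all, 152 genes had a smaller p and 486 a larger absolute difference. In bulk marrow, fewer cells that express a gene and less RNA per cell cannot be told apart.

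Runx3 differed in the opposite direction. It lay at 10.45 and 10.79 on the Hes1-null arrays, against 10.16 and 10.15 on the wild-type arrays. The genotypes did not overlap, but the Hes1-null arrays were 0.34 apart, more than the gap of 0.29 between the genotypes. The difference was 0.46 ± 0.16 (95% interval 0.052 to 0.87), a fold of 1.38 (1.04 to 1.83), which did not pass (adjusted p = 0.546 by limma, 0.0334 unadjusted).

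The 2 genes were also set against each other within arrays. The log2 signal of Runx3 minus that of Runx1 was 0.25 and 0.85 on the Hes1-null arrays, against -0.79 and -0.89 on the wild-type arrays. The balance of these signals therefore differed by 1.39 between the genotypes, 2.61-fold toward Runx3 in Hes1-null marrow. An exact two-sided permutation test gave p = 0.333, the smallest value that 2 arrays against 2 can give. This contrast was chosen after the values were seen, and since the probe sets differ in affinity, its sign on a single array does not say which transcript is more abundant.

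Cbfb, which encodes the shared partner, differed little. Its level was 9.57 and 9.48 on the Hes1-null arrays, against 9.68 and 9.70 on the wild-type arrays. The Hes1-null arrays were both the lower ones, by a gap of 0.11 against a spread of 0.089 within Hes1-null. The difference of -0.16 ± 0.15 (adjusted p = 0.852 by limma) had a 95% interval from -0.53 to 0.21, which leaves room for a signal between 0.692 and 1.15 of wild type.

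Runx1t1, the corepressor gene, was dim. It lay at 5.15 and 5.14 on the Hes1-null arrays, against 5.25 and 5.17 on the wild-type arrays. These levels are above the highest Y-linked value of 4.09 but within the range of olfactory receptor genes, which marrow is not known to use, of which 9.36% had a mean level at or above that of Runx1t1 and 5% exceeded 5.59. The genotypes were separated by 0.023, less than the 0.074 between the wild-type arrays, and the difference was -0.07 ± 0.12 (95% interval -0.37 to 0.24, adjusted p = 0.936 by limma). No signal of Runx1t1 above background was therefore shown in either genotype.

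**Figure D1:**
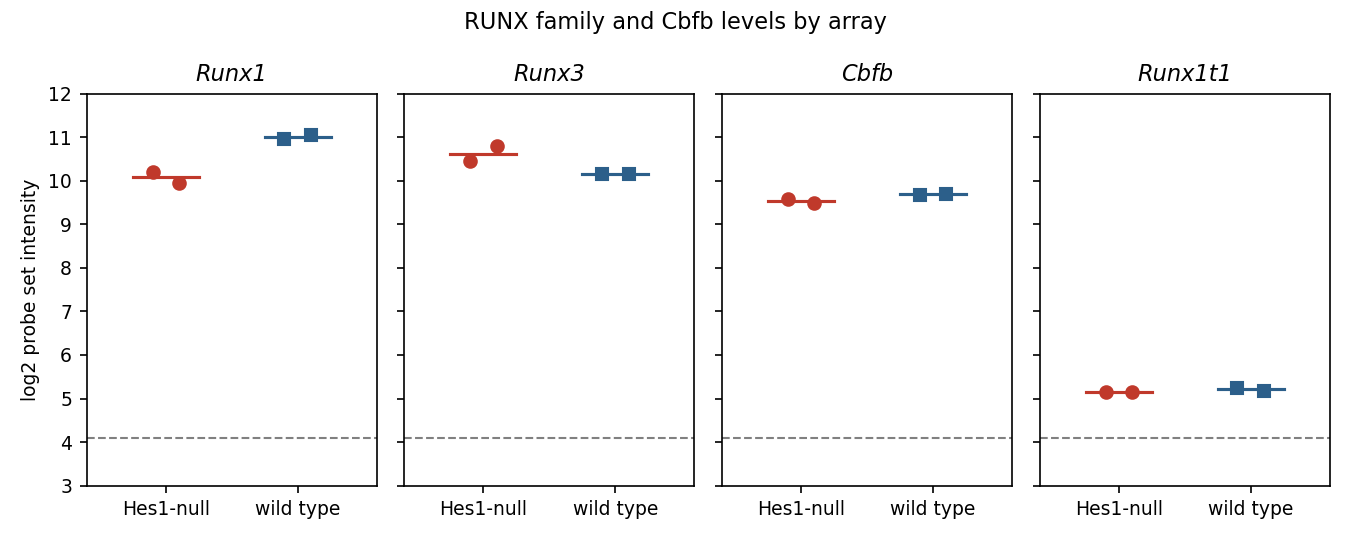
Log2 probe set intensity (vertical axis) of the 4 measured genes on each array, with Hes1-null arrays as circles on the left and wild-type arrays as squares on the right of each panel, horizontal bars for the mean of 2 arrays and a dashed line at the highest Y-linked level, 4.09. Runx1 is lower and Runx3 higher on both Hes1-null arrays, while the 4 arrays span 0.22 for Cbfb and 0.11 for Runx1t1.

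None of the 4 measured genes passed an adjusted p of 0.05 by limma, where 0.145% of all genes did, and 2 of them, Runx1 and Runx3, had an unadjusted p under 0.05, where 8.29% of all genes did. Arrays of the genotypes did not overlap for any of the 4, 1 higher and 3 lower in Hes1-null marrow, but that held for 38.0% of all genes (17.4% higher, 20.6% lower). The filter on low level kept all 4 at the 25th percentile of gene level and 3 at the median, where Runx1t1 was left out. Leaving out Hes1-null replicate 1 brought Runx1 (-1.05, adjusted p = 0.0383 by limma) and Runx3 (0.63, adjusted p = 0.0485) past the threshold, in a fit that called 5.01% of all genes and assumes that the lone Hes1-null array varies like the wild-type pair. Without Hes1-null replicate 2 the values were -0.79 (adjusted p = 0.0981) and 0.29 (adjusted p = 0.264), so the Runx3 difference was larger on Hes1-null replicate 2.

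**Figure D2:**
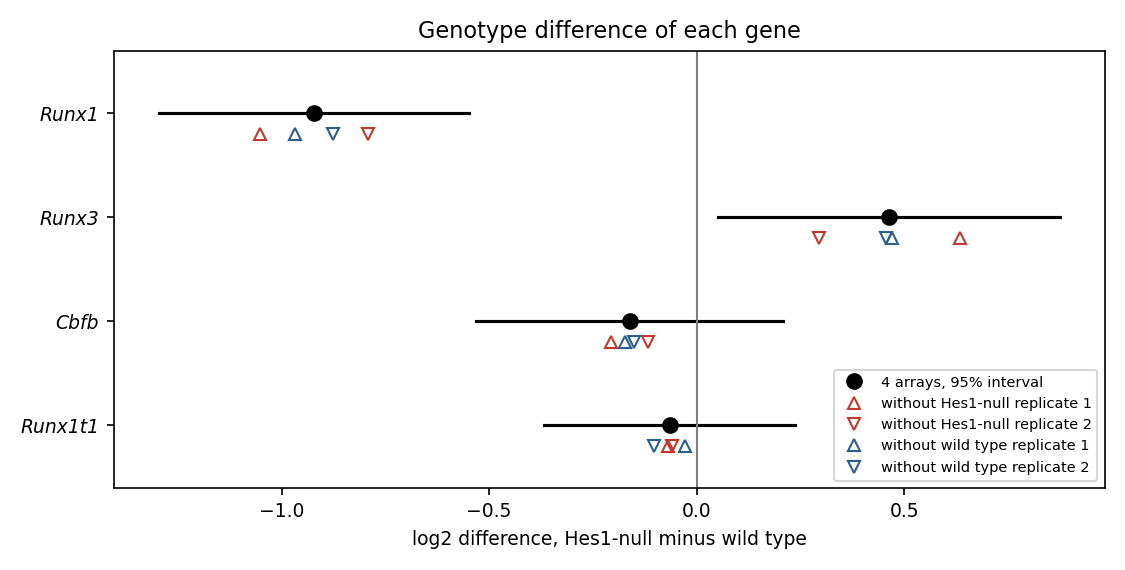
Log2 difference, Hes1-null minus wild type (horizontal axis), of each measured gene from all 4 arrays (filled circle, with the 95% interval as a line) and with each array left out in turn (open triangles, red for a Hes1-null and blue for a wild-type array). Every estimate lies between -1.05 and -0.79 for Runx1 and between 0.29 and 0.63 for Runx3. Those of Cbfb lie between -0.21 and -0.12 and those of Runx1t1 between -0.10 and -0.03. The 95% intervals, which are not adjusted over all genes, include 0 for Cbfb and Runx1t1 but not for Runx1 and Runx3.

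Coding genes next to Runx1 and Runx3 in RefSeq order showed no common direction. The coding neighbours of Runx1, Rcan1 and Clic6 on one side and Setd4 and Cbr1 on the other, had overlapping genotypes, with differences from -0.39 ± 0.47 (Cbr1) to 0.10 ± 0.18 (Setd4). Beside Runx3, the splicing factor gene Syf2 differed by 0.22 ± 0.20 and the chloride channel family gene Clic4 by -0.42 ± 0.17. Srrm1, a further splicing gene beyond Clic4, differed by 0.33 ± 0.13. Rsrp1, beyond Syf2, had overlapping genotypes (-0.03 ± 0.14). None of these neighbours passed an adjusted p of 0.05 by limma, and a test of Runx1 or Runx3 against its neighbours was not made.

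Among 9552 other named genes at or above the median level, the profiles over the 4 arrays that lay closest to that of Runx1, by Euclidean distance after each gene's mean was removed, were those of Lst1 (distance 0.079), Acot9 (0.10), Anxa3 (0.11), Galnt10 (0.13) and B3glct (0.13). Their differences ran from -1.03 (Galnt10) to -0.83 (B3glct). With 4 arrays, nearness mostly reflects a like difference between the genotypes.

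Runx1t1 has 2 relatives in the ETO family. Cbfa2t3, which encodes ETO2, a corepressor of erythroid and megakaryocytic genes, lay at 9.05 and 8.91 on the Hes1-null arrays, against 9.36 and 9.58 on the wild-type arrays. It was lower on both Hes1-null arrays (-0.49 ± 0.17, unadjusted p = 0.0316, adjusted p = 0.543 by limma). Cbfa2t2, which encodes MTGR1, differed by 0.22 ± 0.16 (adjusted p = 0.809).

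Proteins that bind or modify RUNX factors were taken from lists chosen with earlier results of these data known, 58 distinct measured genes. None passed the adjusted threshold by limma, and 4 had an unadjusted p under 0.05 (6.90%, beside 8.29% of all genes), 2 higher and 2 lower in Hes1-null marrow. Their median difference was 0.01, beside -0.02 over all genes. Corepressors had a median of 0.07 (12 measured), with the Groucho gene Tle3 at 10.20 and 10.73 on the Hes1-null arrays, against 9.66 and 9.89 on the wild-type arrays (0.69 ± 0.22, adjusted p = 0.499 by limma). The histone deacetylase genes Hdac2 (-0.57 ± 0.37) and Hdac6 (0.25 ± 0.17) did not pass either. For Hdac2, Hes1-null replicate 2 stood alone at 8.09 and the other 3 arrays lay between 9.20 and 9.24.

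Coactivators showed a median of -0.04 (12 measured), which changed sign when Hes1-null replicate 1 was left out (0.0098). The acetyltransferase gene Kat6b, a relative of the RUNX1 coactivator MOZ, differed by 0.49 ± 0.27, Crebbp by 0.41 ± 0.26 and Kmt2a, the MLL gene whose product binds RUNX1, by -0.21 ± 0.16. Kinases and ubiquitin ligases had a median of -0.02 (16 measured), with either sign under the alternatives. Pim1, a kinase that phosphorylates RUNX proteins and a target of cytokine signalling, lay at 9.38 and 11.00 on the Hes1-null arrays, against 8.42 and 9.01 on the wild-type arrays (1.47 ± 0.54, adjusted p = 0.571 by limma). The spread of Pim1 within Hes1-null marrow exceeded its gap between the genotypes. Stub1 (-0.37 ± 0.26), a ubiquitin ligase gene, and Cdk4 (-0.39 ± 0.31) had overlapping genotypes.

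Transcription factors that occupy blood enhancers with RUNX1 had a median difference of 0.06 (18 measured), which turned to -0.06 without wild-type replicate 1. On both Hes1-null arrays 4 were higher and 4 lower, where 17.4% and 20.6% of all genes were. Lmo2, a bridging factor of the stem cell complex, lay at 11.01 on each Hes1-null array, against 11.29 and 11.49 on the wild-type arrays (-0.38 ± 0.12, unadjusted p = 0.0233, adjusted p = 0.486 by limma). Bcl11a (-0.52 ± 0.16), a transcriptional repressor that acts in lymphoid and erythroid cells, differed in the same direction. So did Gata1 (-0.29 ± 0.13), the erythroid and megakaryocytic factor, and neither passed the adjusted threshold. Gata1 did not exceed 5.59, the olfactory receptor limit given above, on the Hes1-null arrays.

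Known RUNX targets comprised 53 distinct measured genes in 4 lists. These lists too were chosen with earlier results of these data known, so their shares are not an independent test. They were not split into genes that RUNX factors activate and genes that they repress. The direction of a list is therefore no measure of RUNX activity. Of the 53 genes 1, Ccl3, passed an adjusted p of 0.05, where 0.145% of all genes did. At an unadjusted p of 0.05 there were 1 higher and 11 lower genes in Hes1-null marrow, 22.6% of the targets, beside 3.51% higher and 4.78% lower over all genes. The genotypes did not overlap for 5 higher and 20 lower targets (47.2%, beside 38.0% of all genes), and the median difference was -0.13. Many of these targets also mark a marrow cell type: 4 of 13 myeloid, 3 of 10 megakaryocyte, 4 of 19 lymphoid and 5 of 11 bone targets were in the cell type lists.

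**Figure D3:**
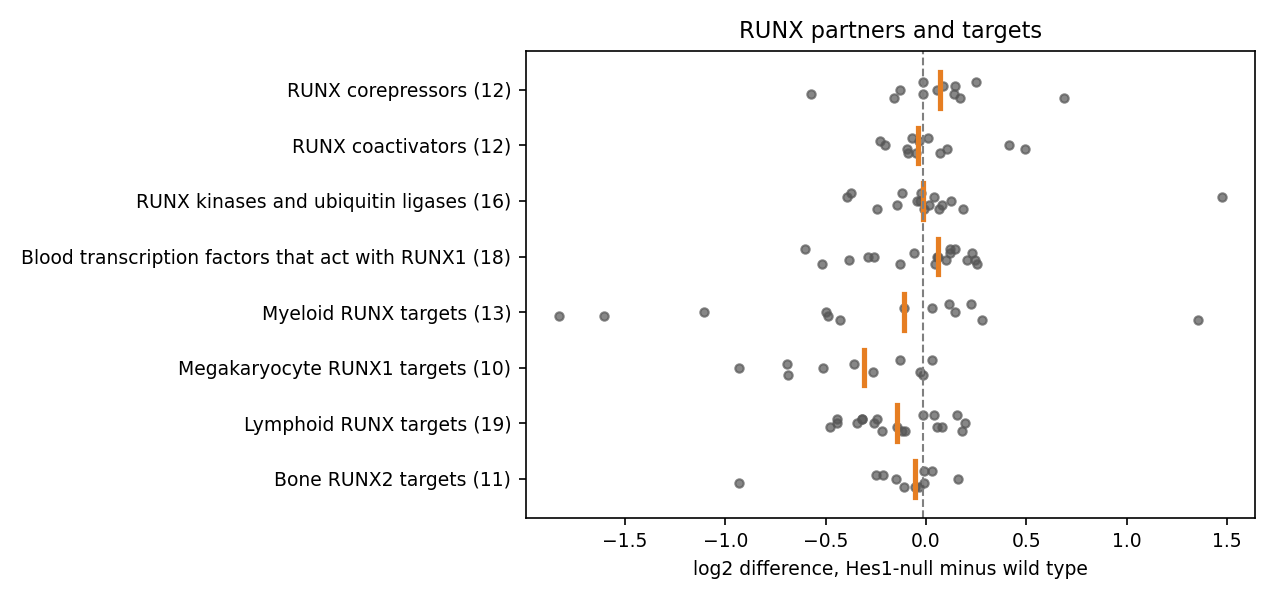
Log2 difference, Hes1-null minus wild type (horizontal axis), of each measured gene (points) in 4 lists of RUNX partners and 4 lists of RUNX targets, with the number measured in brackets, the list's median as an orange bar and the median of all genes as a dashed line. Partner medians lie between -0.04 and 0.07 and target medians between -0.31 and -0.06, and the myeloid targets spread most, from -1.83 to 1.35.

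Myeloid targets divided. Ccl3, the gene of the chemokine MIP-1 alpha, lay at 12.88 and 13.12 on the Hes1-null arrays, against 11.60 and 11.69 on the wild-type arrays, and rose 2.56-fold (1.35 ± 0.11, adjusted p = 0.0387 by limma). That call ended when Hes1-null replicate 2 (adjusted p = 0.0645) or wild-type replicate 2 (adjusted p = 0.0700) was left out. It also ended with a filter at the 25th percentile (0.0540) or the median (0.0728) of level, without the intensity trend (0.0807) and with robust moderation (0.0547). Of all promoter windows, 16.8% held a match to the RUNX core. Among myeloid targets, the windows of Ccl3, Ctsg and Il3 held a single match each, and those of Elane, Mpo, Gfi1, Itgam and Csf2 held 0. The match of Ccl3 began at base -122 and is shown in capitals.
Ccl3 (chr11:83649483-83649512, minus strand): atcctgggccccTGTGGTcactgtggaccc
The rise of Ccl3 stood beside immediate early genes, of which 13 of 14 were higher on both Hes1-null arrays (17.4% of all genes were), with a summed intensity of 13100 and 20700 in Hes1-null and 4750 and 5310 in wild type. Among them the AP-1 gene Jun passed the threshold (2.70 ± 0.16, adjusted p = 0.0231 by limma), and that call ended when wild-type replicate 2 was left out (adjusted p = 0.0700). Their part in the result was not tested.

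Elane, the neutrophil elastase gene, lay at 11.70 and 11.17 on the Hes1-null arrays, against 13.01 and 13.08 on the wild-type arrays. The difference of -1.61 ± 0.18 (adjusted p = 0.0789 by limma) did not pass the threshold. Mpo and Csf1r, textbook targets of RUNX1 named after their values were seen, were lower on both Hes1-null arrays as well. Mpo, the myeloperoxidase gene, had 11.74 and 10.13 on the Hes1-null arrays and 12.83 and 12.69 on the wild-type arrays (-1.83 ± 0.50, adjusted p = 0.399). Csf1r, the macrophage colony-stimulating factor receptor gene, had 8.84 and 9.61 on the Hes1-null arrays and 10.37 and 10.28 on the wild-type arrays (-1.10 ± 0.27, adjusted p = 0.335). The Hes1-null arrays differed from each other by more for these 2 genes than the wild-type arrays did. The repressor gene Gfi1 (-0.50 ± 0.25) was lower on both Hes1-null arrays too, while the granulocyte factor gene Cebpe (-0.49 ± 0.42) and the integrin gene Itgam (-0.43 ± 0.30) had negative differences with overlapping genotypes. Others were higher on both Hes1-null arrays, as Ccl3 was, without passing the adjusted threshold. Spi1, the PU.1 gene, differed by 0.15 ± 0.11, Csf2rb by 0.22 ± 0.15 and the cathepsin G gene Ctsg by 0.28 ± 0.16. The cytokine genes Il3 and Csf2 did not exceed the highest Y-linked level of 4.09 on any array.

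**Figure D4:**
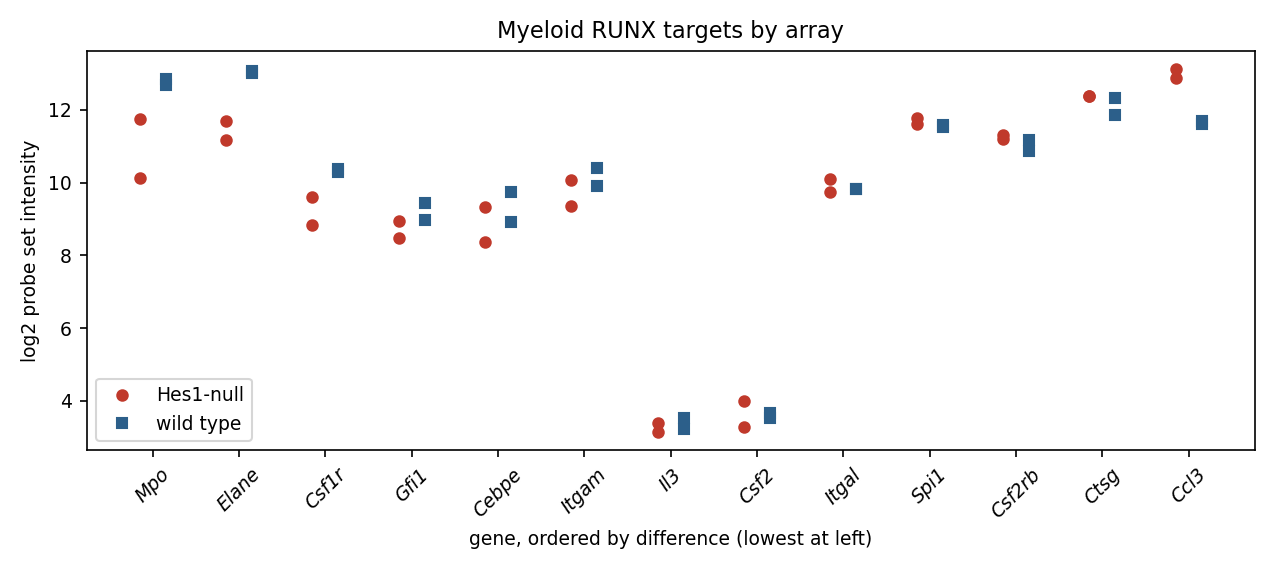
Log2 probe set intensity (vertical axis) of the 13 measured myeloid RUNX targets on each array, Hes1-null as red circles on the left and wild type as blue squares on the right of each gene, ordered by difference. Mpo, Elane and Csf1r are lower and Ccl3 is higher on both Hes1-null arrays, while Il3 and Csf2 do not exceed 4.09.

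Megakaryocyte targets of RUNX1 had a median difference of -0.31 (10 measured), 5 lower and 0 higher on both Hes1-null arrays (20.6% and 17.4% of all genes). By limma, 0 passed the adjusted threshold and 4 were lower at an unadjusted p of 0.05, beside 4.78% of all genes. Gfi1b, a repressor needed for platelet formation, lay at 7.26 and 7.35 on the Hes1-null arrays, against 8.44 and 8.02 on the wild-type arrays (-0.93 ± 0.20, adjusted p = 0.267). The integrin gene Itga2b differed by -0.69 ± 0.19. Alox12, the platelet lipoxygenase gene whose expression depends on RUNX1 in human platelets, had a measured difference of -0.69 ± 0.14, but its levels of 4.66 to 5.47 did not exceed 5.59, the olfactory receptor limit given for Runx1t1, on any array. Prkcq, also among the 5 lower genes, lay at 4.86 to 5.03, below that limit too. Without wild-type replicate 2 the median of this list was -0.13.

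Lymphoid targets had a median of -0.14 (19 measured), 8 lower and 1 higher on both Hes1-null arrays (20.6% and 17.4% of all genes). By limma, 0 were past the adjusted threshold and 3 were lower at an unadjusted p of 0.05, beside 4.78% of all genes. The 3 with the smallest p were Foxp3 (-0.44 ± 0.14), the regulatory T cell factor gene, Il2rb (-0.48 ± 0.18), a receptor chain of T and natural killer cells, and the granzyme gene Gzmb (-0.44 ± 0.17). All 3 were lower on both Hes1-null arrays. Gzmb, Cd4 and Tbx21, all counted as lower, did not exceed 5.59 on 3 of the 4 arrays. The higher gene, Il4, lay at 4.78 to 5.12, below that limit on every array. Bone targets of RUNX2 had a median of -0.06 (11 measured). On both Hes1-null arrays 3 were lower and 0 higher, where 20.6% and 17.4% of all genes were. Mmp13, a collagenase gene, lay at 5.44 and 5.20 on the Hes1-null arrays, against 6.11 and 6.40 on the wild-type arrays (-0.93 ± 0.17, adjusted p = 0.188 by limma). Col1a2 (-0.25 ± 0.16) and Tnfrsf11b (-0.21 ± 0.16), the osteoprotegerin gene, differed less, and Tnfrsf11b did not exceed 5.59 on any array. Mmp13 did not exceed it on the Hes1-null arrays.

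Many myeloid markers were lower in Hes1-null marrow, as Runx1 was, and so were many markers of some other cell types. Over all genes, 20.6% were lower and 17.4% higher on both Hes1-null arrays. Of 12 monocyte and macrophage markers, 9 were lower and 1 higher on both, with a summed intensity of 6040 and 6240 in Hes1-null and 10200 and 9530 in wild type. Vcam1, an adhesion gene of marrow macrophages and stroma, fell (-2.62 ± 0.17, adjusted p = 0.0242 by limma), a call that ended when Hes1-null replicate 2 (adjusted p = 0.0532) or wild-type replicate 2 (adjusted p = 0.0700) was left out. The chemokine receptor gene Ccr2 had a difference of -1.91 ± 0.20. Of 8 primary granule markers, 5 were lower and 1 higher on both Hes1-null arrays (summed intensity 16100 and 13000 in Hes1-null, 28200 and 27500 in wild type), among them Elane and the proteinase 3 gene Prtn3 (-0.80 ± 0.10). Of 10 late neutrophil markers, 6 were lower and 1 higher on both (summed intensity 9530 and 11600 in Hes1-null, 12500 and 20000 in wild type). Ltf, the lactoferrin gene, passed the threshold (-2.77 ± 0.23, adjusted p = 0.0398 by limma), a call that ended when Hes1-null replicate 2 (adjusted p = 0.0775) or wild-type replicate 2 (0.0726) was left out, or with a filter at the 25th percentile (0.0525) or the median (0.0728) of level. Of 9 platelet markers, 7 were lower and 0 higher (762 and 794 in Hes1-null, 1300 and 1290 in wild type). Of 10 endothelial markers, 7 were lower and 0 higher on both Hes1-null arrays. Of 13 osteoblast and stromal markers, 6 were lower and 1 higher. Among these, Kdr, Tek, Esam and Lepr did not exceed 5.59, the olfactory receptor limit, on any array. Mrc1, counted among the lower monocyte and macrophage markers, did not exceed it either. No marker value was 0 on any array, which does not show that a marker was detected, since no gene on any array lay below a log2 level of 1.41. The part of these cells in the Runx1 difference was not tested.

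T cells and natural killer cells use RUNX3, and their marker lists each had a median difference of -0.14. Of 12 T cell markers, 6 were lower and 2 higher on both Hes1-null arrays (summed intensity 600 and 585 in Hes1-null, 1150 and 825 in wild type). Of 11 natural killer cell markers, 6 were lower and 0 higher (445 and 349 in Hes1-null, 600 and 929 in wild type). Over all genes, 20.6% were lower and 17.4% higher. Many of these markers were dim. Among those counted as lower or higher, Klrb1c, Klrk1, Klrd1, Klra8, Cd3d, Cd3g and Zap70 did not exceed 5.59, the olfactory receptor limit, on any array. Gzmb did not exceed it on 3 of the 4 arrays. Cd28, a T cell costimulatory receptor gene, differed by -2.37 ± 0.40 and the cytotoxic granule gene Nkg7 by -2.08 ± 0.61, and neither passed an adjusted p of 0.05 by limma. Without Cd28 the T cell sum was 529 and 518 in Hes1-null and 609 and 592 in wild type, and without Nkg7 the natural killer sum was 276 and 293 in Hes1-null and 320 and 314 in wild type, both chosen after the values were seen. The part of these cells in the Runx3 difference was not tested.

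**Figure D5:**
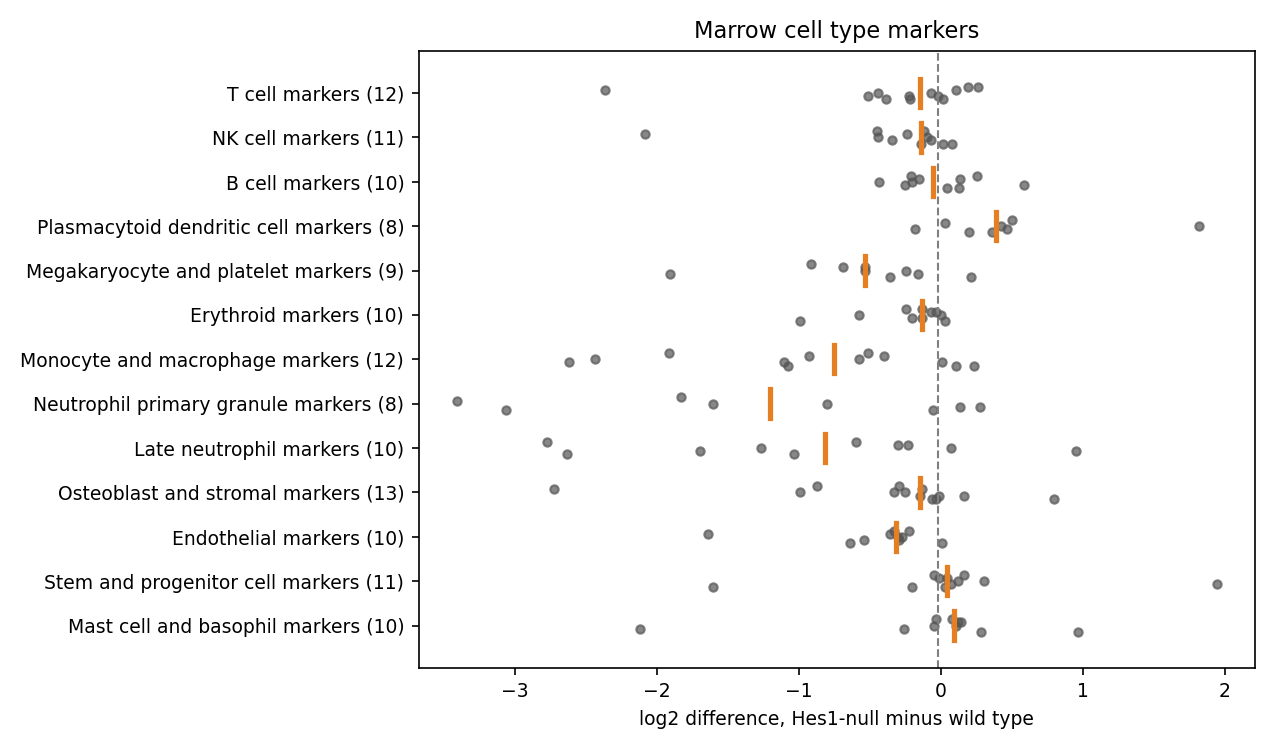
Log2 difference, Hes1-null minus wild type (horizontal axis), of the measured markers (points) of 13 marrow cell types, with the number measured in brackets, the list's median as an orange bar and the median of all genes as a dashed line. Medians run from -1.20 for primary granule markers to 0.39 for plasmacytoid dendritic cell markers.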

How the data were processed

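Total RNA of leukemic whole marrow was hybridised to 4 MoGene arrays. The authors made the deposited intensities with RMA in Affymetrix Expression Console (both named in the submitters' processing notes), with no version given in the sources used here. They are on a linear scale, so log2 was taken with nothing added. No sample column was left out (0). Of 35556 probe sets, 21789 carry 1 symbol, 1621 several and 12146 none. The brightest of a gene's probe sets stood for it, giving 19938 genes. Genotypes from the labels were compared with limma 3.58.1 in R 4.3.3 (lmFit, eBayes with intensity trend, two-sided, 2 residual and 3.41 prior degrees of freedom), with Benjamini-Hochberg adjustment over all genes and a threshold of 0.05. The test was tried first on simulated data, with changes far larger than those of the members. That trial does not show how well differences of the members' size are recovered. Members and lists were chosen with earlier results of these data known. Named genes of partner and target lists were those past the threshold, otherwise the 3 with the smallest p, and of cell type lists up to 2 with the smallest p. Further myeloid targets, Jun, Hoxa9, Meis1 and the neighbours of members were named outside this rule. Sequences are RefSeq's (GRCm38.p6), matched by symbol for 4 of the 5 genes.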

Additional observations from a re-analysis of the deposited data

How the results depend on the processing

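The direction of all 4 measured genes held under every alternative that gave a value, and the number of arrays limits the precision of each. That is a weak check. The genotypes did not overlap for any of the 4, so leaving out an array could not reverse a direction. Of the other alternatives, only quantile normalization and centring on the array median changed the differences themselves. Leaving out each array in turn, the Runx1 difference ran from -1.05 to -0.79, Runx3 from 0.29 to 0.63, Cbfb from -0.21 to -0.12 and Runx1t1 from -0.10 to -0.03, and the number of members past the threshold from 0 to 2. The 2 calls, Runx1 and Runx3, came without Hes1-null replicate 1, where 999 genes were called; the cause was not tested. Under the other alternatives, 10 for Runx1, the adjusted p by limma ran from 0.108 to 0.178 for Runx1 and from 0.434 to 0.567 for Runx3, with 0 members called. Runx1t1 was below the filter at the median level and has no value there. With the replicate number as a block, 89 genes were called in place of 29, and the differences of -0.92 (adjusted p = 0.135), 0.46 (0.567), -0.16 (0.944) and -0.07 (0.980) for Runx1, Runx3, Cbfb and Runx1t1 did not pass. What a replicate number stands for is not labelled, and same-numbered arrays deviated together with r = 0.0505 across genes. Calls over all genes also numbered 5 at the median filter, 17 at the 25th percentile and 46 after a further quantile normalization. List medians moved more: over all alternatives the myeloid targets ran from -0.43 (filter on level) to 0.02 (without Hes1-null replicate 1), the megakaryocyte targets from -0.60 to -0.13, the kinases and ligases from -0.08 (without wild-type replicate 1) to 0.07 (without wild-type replicate 2), the coactivators from -0.10 to 0.0098, the lymphoid targets from -0.25 to -0.08, the bone targets from -0.26 to 0.04 and the factors acting with RUNX1 from -0.06 to 0.14.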

Other observations

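Plasmacytoid dendritic cells, whose development uses RUNX2, gave the marker list with the highest median difference among the cell types examined, 0.39 over 8 measured genes. On both Hes1-null arrays 5 of these were higher and 1 lower than on both wild-type arrays, where 17.4% and 20.6% of all genes were. By limma, 0 passed an adjusted p of 0.05. At an unadjusted p of 0.05, 3 were higher, beside 3.51% of all genes. The summed intensity was 2580 and 2620 in Hes1-null marrow and 1150 and 1000 in wild type, mostly from Tcf4 on the Hes1-null arrays. Tcf4, the E2-2 transcription factor gene, lay at 10.91 and 10.98 on the Hes1-null arrays and 9.33 and 8.93 on the wild-type arrays (1.82 ± 0.18, adjusted p = 0.0591). Pacsin1, a further marker, differed by 0.50 ± 0.14. The lower marker was Ccr9 (-0.18 ± 0.12), which did not exceed 5.59, the olfactory receptor limit, on any array. Siglech, at 5.34 to 5.99, lay near that limit. B cell, mast cell and stem cell lists had medians of -0.06, 0.09 and 0.04. Single genes in them differed more, in either direction. In the stem cell list Flt3 differed by 1.94 ± 0.30 and Kit by -1.60 ± 0.60. In the mast cell list Cpa3 differed by -2.11 ± 0.82 and Mcpt8 by 0.96 ± 0.51. None of these genes passed an adjusted p of 0.05 by limma.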
